A study of Mus musculus with 30 samples.

Results

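The comparison described here was made in the subventricular zone (SVZ) of NestinTK+ mice and set 5 mice given ganciclovir (GCV) against 4 mice given PBS, which were all the SVZ libraries with these labels. These 9 libraries, 1 per mouse, were taken from 15 SVZ libraries and from 30 libraries in the series as a whole. Genes with more than 1 CPM (counts scaled to a library total of 1000000) in at least 3 of the 9 libraries were kept, which left 15001 of the 53278 genes in the SVZ count table. All mice were C57Bl/6. NestinTK+ mice carry a viral thymidine kinase driven by the second intron of the rat Nestin gene, and the agent was delivered for 4 weeks from an osmotic minipump under the skin. The NestinTK- mice, used below as a background without the transgene, were wild-type littermates treated in the same way, 3 with GCV and 3 with PBS. The methods call the mice adult, and the age of the sequenced mice at tissue collection is not given in the sources used here. Mice are numbered within each group (GCV mouse 1 to 5, PBS mouse 1 to 4).

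The SVZ lines the lateral ventricles and is one of the niches in which neurons are still born in the adult rodent brain. Slowly dividing stem cells with astrocyte features give rise to transit-amplifying cells, which divide fast and produce neuroblasts that migrate towards the olfactory bulb. Thymidine kinase turns ganciclovir into a nucleotide analogue that kills cells as they copy their DNA, so that in this model dividing cells with an active Nestin enhancer are the intended target. A drop in a gene's level in bulk tissue can come from fewer cells of a type or from less RNA per cell, and these cannot be told apart here.

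The GCV libraries held 8.36 to 9.60 M counts and the PBS libraries 12.6 to 16.6 M, with no overlap. The library numbers in the labels were 1 to 4 and 9 for GCV mice and 13, 15, 16 and 20 for PBS mice, so treatment, depth and numbering cannot be told apart in these 9 libraries. The share of counts from the mitochondrial genome, ribosomal RNA included, was 13.1 to 17.0% with GCV and 9.17 to 12.9% with PBS. Mitochondrial ribosomal RNA alone was 9.23 to 13.0% of all counts with GCV and 4.93 to 9.54% with PBS. The list of mitochondrially encoded genes used below holds no ribosomal RNA. Its sums overlapped, at 27000 to 39800 CPM with GCV and 30100 to 42300 CPM with PBS. PBS mouse 1 stood apart, because 9.83% of its counts came from Ttr, the transthyretin gene that marks choroid plexus epithelium, against at most 0.0789% in the other 8 libraries. Correlations of log2 CPM were 0.826 to 0.91 between libraries of 1 group and 0.833 to 0.906 between the groups. The labels name neural precursor cells as the cell type, but the libraries held the RNA of the tissue as a whole. Mbp, a myelin gene of oligodendrocytes, stood at 1545 ± 429 CPM with GCV and 1814 ± 726 CPM with PBS (SD, n = 5 and 4), and Ppp1r1b, a gene of striatal medium spiny neurons, at 2305 ± 842 and 2213 ± 402 CPM.

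Among the genes that fell after GCV were Igfbpl1, Prokr2 and Sp8, which migrating neuroblasts express, and the mitosis gene Spc25. They were at or close to 0 in every GCV mouse and present in every PBS mouse. Over all genes, 124 of 15001 fell (0.827%), 34 rose (0.227%) and 158 (1.05%) moved either way. The thresholds, used throughout for "fell" and "rose", were a nominal p no greater than 0.01 together with a change of 2-fold or more in the edgeR quasi-likelihood test on TMM-normalised counts. By that test no gene passed an adjusted p of 0.05 (Benjamini-Hochberg), the adjusted values of the called genes running from 0.0992 to 0.705, while 875 genes (5.83%) had a nominal p under 0.05. DESeq2 called 28 genes and limma-voom 1 at an adjusted p under 0.05. Of the 124 genes that fell, 98 were protein-coding, 24 were of another type and 2 were not matched. Of all genes tested 87.6% were protein-coding. In 398 genes (2.65%) every GCV library was below every PBS library, and in 54 genes (0.36%) every GCV library was above, so that of the called genes 74 fell and 9 rose with no overlap. The number of genes that fell rested in part on PBS mouse 1: without it 55 fell (0.38%) and 25 rose (0.173%), of which 46 and 13 were also among the 124 and 34.

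**Figure D1:**
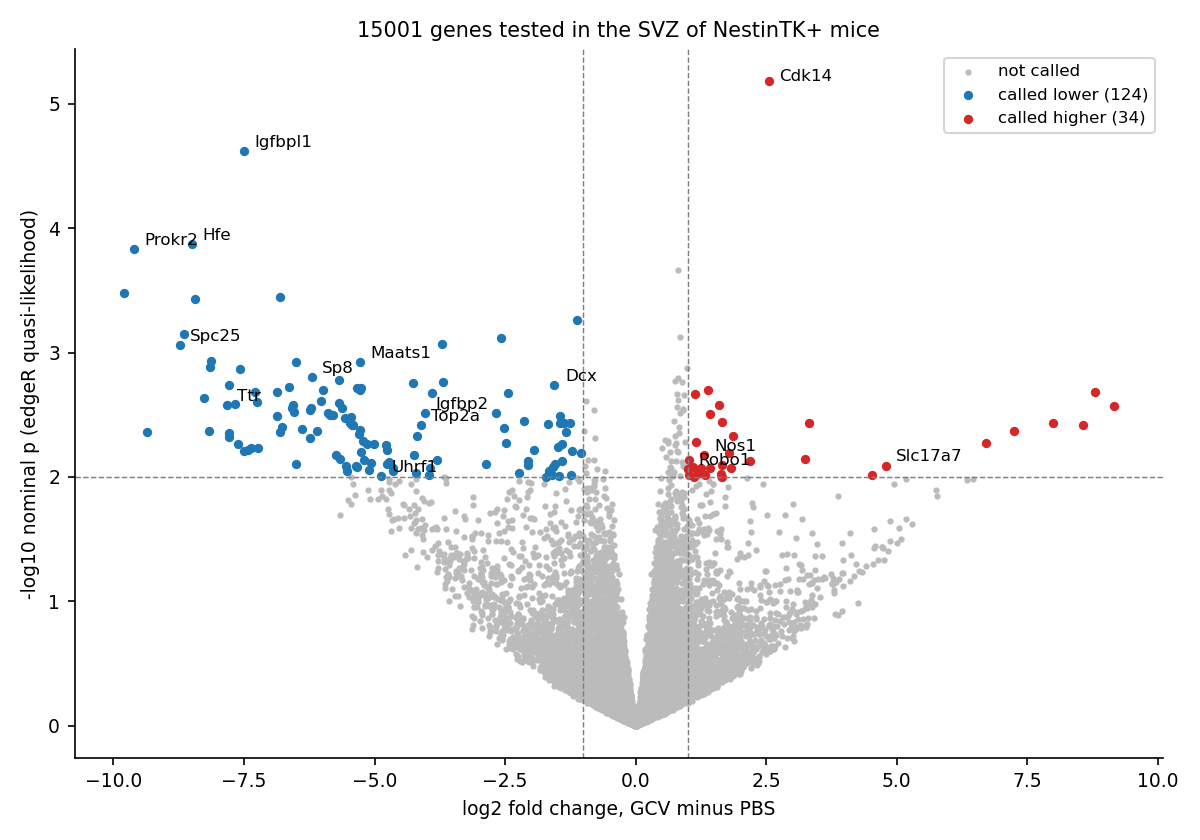
Volcano plot of the 15001 genes tested, with the log2 fold change (GCV minus PBS) on the x axis and -log10 of the nominal p on the y axis. Dashed lines mark a 2-fold change and a nominal p of 0.01, and 124 lower and 34 higher genes lie beyond them, with Cdk14 the highest point and Igfbpl1 next.

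Igfbpl1 encodes a secreted protein of the IGF-binding family and lies on chromosome 4 (45809468 to 45826923, GRCm38, minus strand, protein-coding, no exon shared with another annotated gene). Its counts were 0, 0, 2, 1 and 1 in GCV mice 1 to 5 and 89, 452, 52 and 501 in PBS mice 1 to 4. All 5 GCV libraries were thus under the floor of 3 counts used here, while no PBS library was. Mean levels were 0.0925 ± 0.0992 CPM (SD, n = 5) and 21.2 ± 19.0 CPM (SD, n = 4). The pooled counts gave a 215-fold lower level with GCV, with an exact counting interval at 95% of 83.9 to 792. Such intervals, here and below, leave out the spread between mice. The fitted log2 fold change was -7.51 ± 1.21 (SE; adjusted p = 0.18 by the edgeR quasi-likelihood test, Benjamini-Hochberg), and it stayed between -8.13 and -7.06 when each of the 9 libraries was left out in turn.

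In wild-type mice the Igfbpl1 ranges overlapped. Their levels were 27.0, 0.656 and 5.2 CPM with GCV and 8.68, 14.6 and 5.70 CPM with PBS. The treatment difference in NestinTK+ mice differed from that in wild-type mice by -7.64 ± 1.77 on the log2 scale (SE; interaction of genotype and treatment, called; adjusted p = 0.942 by the edgeR quasi-likelihood test, Benjamini-Hochberg). The second wild-type GCV mouse, at 0.656 CPM, had a level below all 4 NestinTK+ PBS mice but above all 5 NestinTK+ GCV mice.

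Prokr2, the receptor for prokineticin 2 through which neuroblasts are guided to the olfactory bulb, was not detected in any of the 5 GCV libraries. It had 92, 152, 200 and 77 counts in PBS mice 1 to 4, a mean of 9.22 ± 3.21 CPM (SD, n = 4). Against the floor of 3 counts per library it was at least 26.8-fold lower with GCV (adjusted p = 0.555 by the edgeR quasi-likelihood test, Benjamini-Hochberg). All 6 wild-type libraries held Prokr2, at 1.90 to 13.3 CPM, and the interaction was called as well (adjusted p = 0.642 by the same edgeR test). Prokr2 lies on chromosome 2 (132337733 to 132385447, protein-coding).

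Of the 22 neuroblast genes examined, all were tested, 7 fell and none rose, where 0.827% of all genes fell. Igfbpl1, Prokr2 and Sp8, which are 3 of the 7, passed the filter through the PBS libraries alone, as did 162 of the 15001 genes, so the count is a description and no support. They were Igfbpl1, Prokr2, the transcription factors Sp8, Dlx1 and Sox11, the microtubule-binding protein gene Dcx (doublecortin, the standard neuroblast marker) and the tubulin gene Tubb2b. Sp8, which is needed for olfactory bulb interneurons, had 6 counts in GCV mouse 1 and 0 in GCV mice 2 to 5, against 22, 329, 84 and 211 counts in the PBS mice (log2 fold change -6.20 ± 1.58 SE). Dcx stood at 23.8, 22.1, 16.1, 15.1 and 21.8 CPM with GCV and at 30.6, 114, 78.0 and 38.0 CPM with PBS (-1.56 ± 0.404). Sp8 also had no count in 1 of the 3 wild-type PBS mice. The Dcx ranges did not overlap, yet the GCV level was far from 0, unlike that of Igfbpl1, Prokr2 and Sp8.

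Dlx1, a homeobox gene of interneuron progenitors, was at 1.91 to 9.11 CPM with GCV and at 7.27 to 65.7 CPM with PBS (log2 fold change -2.45 ± 0.649 SE), and the ranges met only at PBS mouse 1. Sox11, a transcription factor of immature neurons, was at 33.4 to 144 CPM with GCV and 93.2 to 279 CPM with PBS (-1.34 ± 0.393), with GCV mouse 3 inside the PBS range. Tubb2b was at 5.73 to 10.0 CPM with GCV and 18.1 to 35.0 CPM with PBS (-1.54 ± 0.497). Sox4, the relative of Sox11, was at 0.788 to 27.1 CPM with GCV and 34.4 to 126 CPM with PBS but missed the p threshold. Calls were lost for Dcx without PBS mouse 2 (-1.14), for Dlx1 without PBS mouse 2 (-2.20) or 4 (-2.07), for Sox11 without any 1 of GCV mice 1, 2, 4 and 5 and PBS mice 2 and 3 (-1.30 to -1.10), and for Tubb2b without any 1 of 6 libraries (GCV mice 2, 4 and 5 and PBS mice 1 to 3, -1.61 to -1.36). Under limma-voom the calls of Dcx (-1.42), Dlx1 (-2.27) and Tubb2b (-1.53) were lost, and that of Tubb2b also with no filter (-1.56) and with Ttr as a covariate (-1.70).

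None of the other neuroblast genes was called. Tubb3, a tubulin of all neurons, stood at 195 ± 54.7 CPM with GCV and 266 ± 94.4 CPM with PBS (SD, n = 5 and 4), and Sp9 (34.5 and 38.3 CPM, GCV and PBS), Dlx5 (17.0 and 21.2 CPM), Dlx6 (14.1 and 20.4 CPM), Stmn2 (182 and 222 CPM) and Gad1 (348 and 330 CPM) had ranges that overlapped as well. The median log2 fold change of the list was -0.351, against 0.0066 over all genes tested. Without PBS mouse 1, 7 of 22 fell (median -0.447), but these were not the same 7, since Tubb2b lost its call there (-1.61). In wild-type mice none of the 22 was called (median 0.0423). Summed over the list, PBS mouse 1 had the lowest level of the 9 libraries, 1210 CPM, while the other PBS mice had 1960 to 2570 CPM and the GCV mice 1320 to 1680 CPM.

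**Figure D2:**
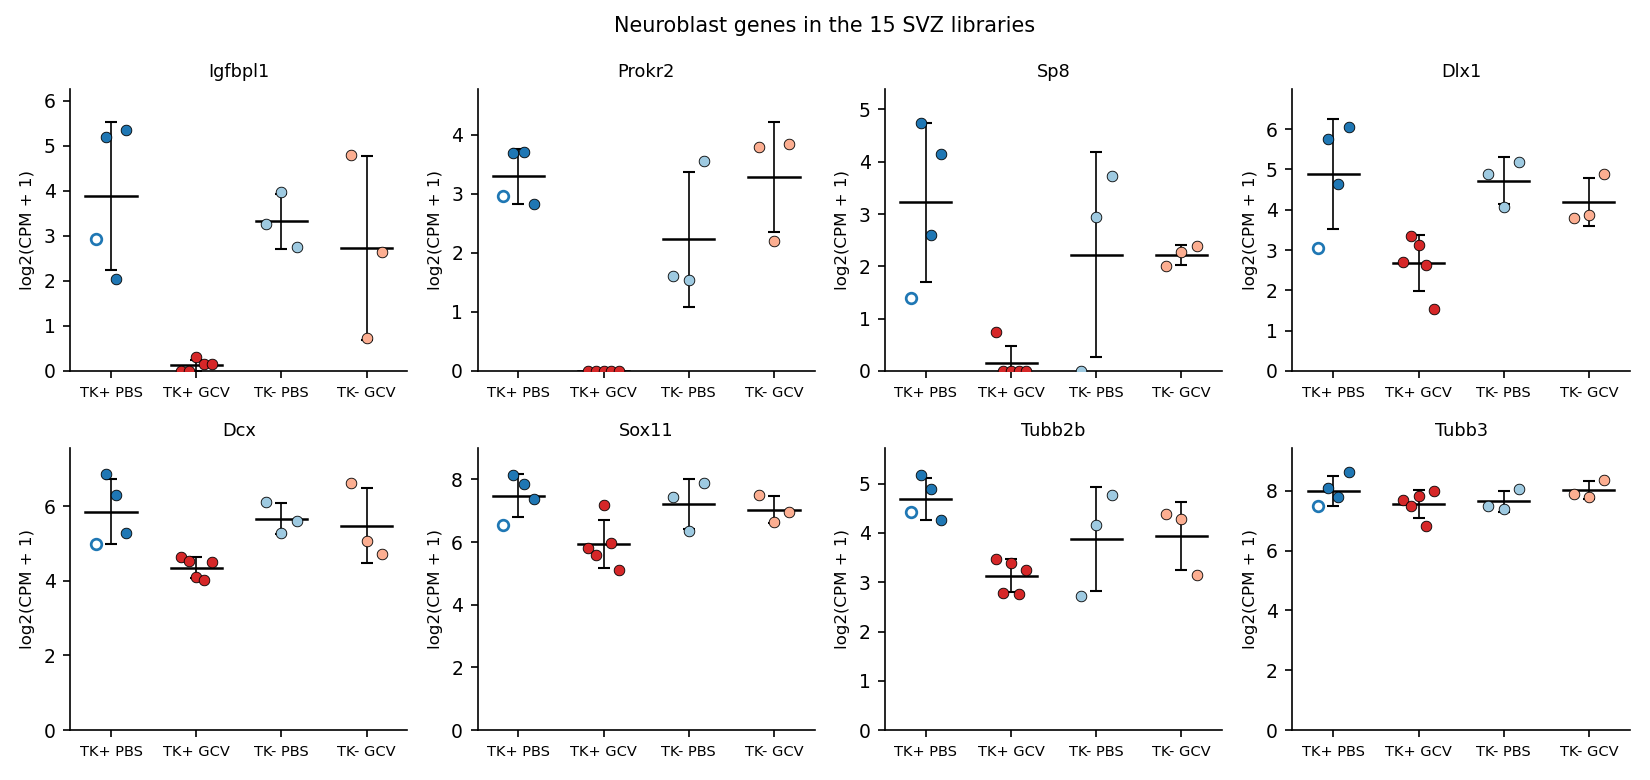
Levels of 8 neuroblast genes as log2(CPM + 1) in the 15 SVZ libraries by genotype (TK+ or TK-) and treatment, 1 point per mouse, with the mean (bar) and SD (whiskers) and PBS mouse 1 as an open circle. Igfbpl1, Prokr2 and Sp8 lie at or near 0 in the 5 TK+ GCV mice, Dcx and Tubb2b are lower but present, and Tubb3 overlaps between the groups.

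Genes of mitosis, which code for the spindle, the kinetochore and the kinases that drive division, were compared by their summed level, a measure that no filter on low values touches. The sum over the 36 genes was 90.3, 31.1, 85.4, 74.0 and 26.1 CPM in GCV mice 1 to 5 and 121, 325, 209 and 206 CPM in PBS mice 1 to 4. Every GCV mouse was below every PBS mouse, and below the 128 to 340 CPM of the 3 wild-type GCV mice and the 176 to 309 CPM of the 3 wild-type PBS mice. Of the 36 genes 30 were tested, 6 fell (Spc25, Pimreg, Top2a, Aspm, Kif20b and Plk1) and none rose. Their median log2 fold change was -2.58, or -2.39 with genes at the floor set to their bound. Since 22 of the 30 had over 1 CPM in 3 PBS libraries but not in 3 GCV libraries, the filter itself favoured genes that were lower, and the count and the median are a description of the genes that passed and no support.

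Spc25, a subunit of the NDC80 kinetochore complex, had no count in any GCV library and 24, 77, 178 and 18 counts in the PBS mice, at least 14.5-fold lower. Top2a, the topoisomerase that untangles chromosomes before division, was at 3.38, 0, 2.03, 0.834 and 0 CPM with GCV and at 21.4, 35.2, 33.5 and 4.44 CPM with PBS (log2 fold change -4.11 ± 1.19 SE), a call lost without PBS mouse 2 (-3.87) or 3 (-3.90). Pimreg had 2 counts in all GCV libraries against 240 in the PBS libraries, a 94.5-fold lower level with a counting interval of 25.9 to 785. Aspm, which organises spindle poles, had 3 counts against 196, a 51.5-fold lower level with an interval of 17.3 to 252.

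Kif20b, a mitotic kinesin, was at 0 in the 5 GCV libraries but also in PBS mouse 4, so its groups overlapped, and its call was lost under limma-voom (-4.05). Plk1, the kinase that starts many steps of mitosis, was at 0 to 0.71 CPM with GCV and 1.26 to 14.4 CPM with PBS, a call lost without PBS mouse 2 (-4.70), 3 (-5.08) or 4 (-4.77). Cdk1, the central mitotic kinase, was at 0, 0, 2.86, 0 and 0 CPM with GCV and 6.38, 19.3, 13.6 and 8.56 CPM with PBS but missed the p threshold. Mki67, the most used marker of cycling cells, did not follow this pattern: it was at 18.0, 8.99, 26.7, 4.07 and 7.66 CPM with GCV and 7.27, 39.9, 11.4 and 0.475 CPM with PBS, and the ranges overlapped.

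Most promoters of the mitosis list hold a short element that is known from genes of this class. Its frequency therefore describes the list and not the response to GCV. The cell cycle genes homology region (CHR) is bound by the DREAM and MuvB complexes and is found at the start sites of many genes expressed in G2 and mitosis. Its letters TTTGAA or TTCGAA, searched on both strands from 250 bases before to 50 bases after the RefSeq start (GRCm38.p6), were present in the promoters of 17 of 24 mitosis genes with a sequence (70.8%), against 1706 of 10851 tested genes (15.7%). They were in all 5 of the genes that fell and had a promoter sequence, Pimreg having none, which is too few to set against the 70.8%. The 30 bases around a match in each let the element be compared between them, 5′ to 3′ on the gene's strand, with the match in capitals.
Top2a (chr11:99024312-99024341, minus strand): ctaattggtttaTTCGAAaaggcggtcttt
Plk1 (chr7:122159453-122159482, plus strand): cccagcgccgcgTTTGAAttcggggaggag
Kif20b (chr19:34922353-34922382, plus strand): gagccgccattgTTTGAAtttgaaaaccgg
Aspm (chr1:139454767-139454796, plus strand): ggaggcgcgataTTTGAAccgagcaaaagc
Spc25 (chr2:69206172-69206201, minus strand): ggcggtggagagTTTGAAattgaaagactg
The match shown lay between 6 and 35 bases downstream of the start in Plk1, Kif20b, Aspm and Spc25, and from 140 to 135 bases upstream in Top2a. Kif20b held another match at bases 13 to 18, left in lower case above. The Top2a promoter held 4 matches, and those not shown lay at -179 to -174, -120 to -115 and -23 to -18. The CCAAT box (CCAAT, both strands), which often stands upstream of a CHR, was in 16 of the 24 promoters (66.7%) and in 42.7% of all tested genes. These matches describe the letters only, and no binding was measured.

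Genes that copy DNA behaved less uniformly than those of mitosis. Of 32 replication genes 27 were tested, and 1 fell: Uhrf1, which couples DNA methylation to replication, was at 0.113, 1.18, 0, 0 and 0 CPM with GCV and 1.93, 16.5, 1.33 and 19.2 CPM with PBS (log2 fold change -4.88 ± 1.63 SE), a call lost in 6 of the fits that left out 1 library (GCV mouse 1, 3, 4 or 5, PBS mouse 2 or 4, -4.70 to -4.34) and under 6 other settings (-5.14 to -4.84). The helicase subunit Mcm4 stood at 12.7 ± 9.99 and 13.2 ± 3.63 CPM and Mcm2 at 4.50 ± 5.67 and 3.58 ± 3.79 CPM (SD, n = 5 and 4). The list's summed level was 129 to 293 CPM with GCV and 214 to 328 CPM with PBS, with GCV mouse 3 inside the PBS range, and the median log2 fold change was -0.309.

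No gene of activated stem and transit-amplifying cells was called (15 of 18 tested, median log2 fold change -0.74). Egfr, the growth factor receptor that marks them, was at 24.0 ± 10.1 CPM with GCV and 21.9 ± 7.39 CPM with PBS (SD, n = 5 and 4). The summed level of the list nonetheless separated the groups, at 349 to 449 CPM with GCV and 486 to 784 CPM with PBS. Ccnd2, a G1 cyclin, held the largest share of that sum, at 126, 155, 217, 134 and 224 CPM with GCV and 320, 448, 243 and 296 CPM with PBS, and its change was under 2-fold. The same sum was also lower with GCV in wild-type mice, 427 to 507 against 572 to 860 CPM. Nes, whose enhancer drives the transgene, was at 0.451, 0.355, 13.2, 10.6 and 1.2 CPM with GCV and 9.27, 11.0, 8.02 and 13.3 CPM with PBS, so that 2 of the 5 GCV mice had a level within the PBS range.

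**Figure D3:**
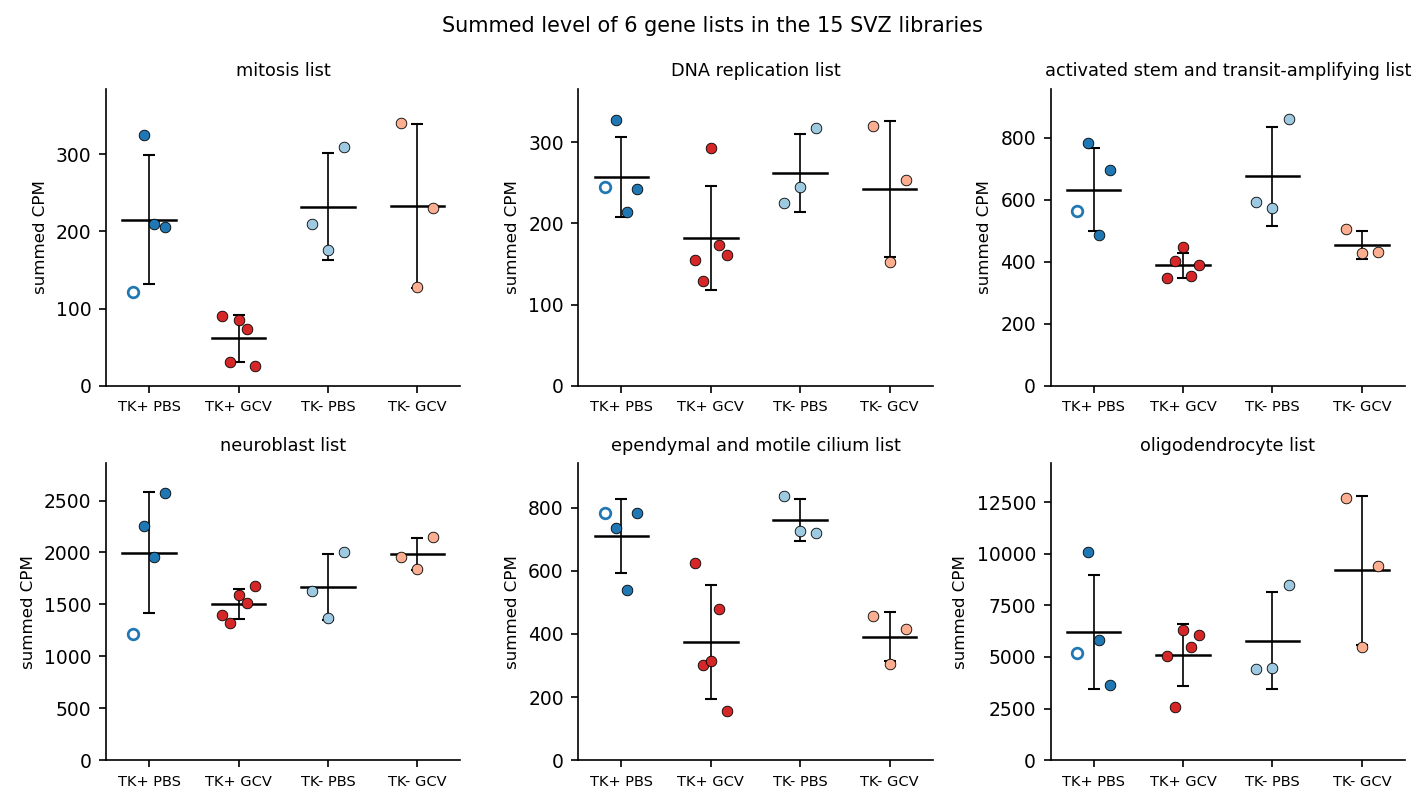
Summed CPM of 6 gene lists in the 15 SVZ libraries by genotype (TK+ or TK-) and treatment, 1 point per mouse, with the mean (bar) and SD (whiskers) and PBS mouse 1 as an open circle. The mitosis sum is at most 90.3 CPM in the 5 TK+ GCV mice and at least 121 CPM in the other 10 mice, whereas the activated stem and ependymal sums are lower with GCV in both genotypes.

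Ependymal cells carry motile cilia, line the ventricle and border the stem cell niche. Of 45 ependymal and cilium genes 44 were tested, 4 fell and none rose, with a median log2 fold change of -1.13 and 38 of 44 below 0, where 49.5% of all genes were. Of the 44, 13 had over 1 CPM in 3 PBS but not in 3 GCV libraries and 2 passed the filter through the PBS libraries alone, so these figures rest in part on the filter and are a description. Maats1, a cilium protein gene, had 1, 2, 0, 1 and 2 counts with GCV and 124, 106, 55 and 60 with PBS, a 45.3-fold lower level with a counting interval of 20.6 to 124. Ccdc114, which docks dynein arms, was at 0.563, 2.96, 0, 0.417 and 0 CPM with GCV and 13.2, 21.9, 18.3 and 14.8 CPM with PBS (log2 fold change -4.18 ± 1.24 SE). The ranges of both genes were apart, and the call of Ccdc114 was lost without GCV mouse 1 or 4 or PBS mouse 2 or 3 (-4.14 to -4.01).

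Dnah7a, an axonemal dynein, had 1 count with GCV against 97 with PBS, and its call was lost with no filter (-5.45) and with DESeq2 (-5.56). Ccdc153 was at 2.15 to 26.4 CPM with GCV and 25.5 to 75.2 CPM with PBS, where GCV mouse 1 and PBS mouse 1 overlapped, and its call was lost without any 1 of 6 libraries (GCV mice 2 to 4, PBS mice 2 to 4, -1.99 to -1.74). Foxj1, the master regulator of motile cilia, was not called, at 57.1, 4.26, 19.1, 16.6 and 5.26 CPM with GCV and 52.8, 44.1, 24.5 and 25.3 CPM with PBS. The list's sum varied more among GCV mice (624, 300, 313, 480 and 156 CPM) than among PBS mice (540 to 784 CPM).

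In wild-type mice the cilium genes were also lower on the whole. Their median log2 fold change between GCV and PBS was -1.35, and the sums were 305 to 456 CPM with GCV and 719 to 837 CPM with PBS. The interaction of genotype and treatment called none of the 4 genes, and it was -4.49 ± 1.69 (SE) on the log2 scale for Ccdc114. The choroid plexus, which adjoins the ependyma, was unevenly present in these libraries, and its part in this result was not tested. Without PBS mouse 1 the cilium median was -0.733 and 3 genes fell.

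Most cilium genes with a promoter sequence also held a promoter element known from their class. The half-site GTTGCC of the X-box, to which the RFX factors of ciliated cells bind, was present on either strand in 21 of 36 promoters (58.3%) and in 1672 of 10851 tested genes (15.4%). It was in 3 of the 4 genes that fell, shown here 5′ to 3′ on the gene's strand with the half-site in capitals.
Maats1 (chr16:38341840-38341869, minus strand): cgtgcttctgcgGTTGCCatagctacggtg
Ccdc153 (chr9:44240513-44240542, plus strand): ctgagttttccaGTTGCCtggacaacgtgc
Dnah7a (chr1:53706967-53706996, minus strand): tcgctcctcacaGTTGCCtgccaccctctg
In Maats1 the half-site began 3 bases downstream of the RefSeq start, and in Ccdc153 and Dnah7a it lay upstream. The presence of the letters says nothing of occupancy in these mice.

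Choroid plexus genes were most abundant in 1 control library. Of 18 genes 14 were tested and 7 fell (Ttr, Prlr, Otx2, Folr1, Enpp2, Kl and Sostdc1), with a median log2 fold change of -5.01. The summed level was 112000 CPM in PBS mouse 1, 320 to 1080 CPM in the other PBS mice and 163 to 462 CPM in the GCV mice. Without PBS mouse 1 none of the genes was called and the median was -0.674. The log2 fold changes without it were still -5.10 for Prlr, -4.38 for Otx2 and -1.98 for Folr1, against -1.49 for Ttr, -1.14 for Sostdc1, -0.211 for Enpp2 and 1.34 for Kl. Folr1, a folate receptor, was at 7.29 to 11.9 CPM in the other 3 PBS mice and at 0 to 4.84 CPM in the GCV mice, with no overlap. In the wild-type mice 2 of the 3 PBS libraries were rich in Ttr in the same way, and 10 choroid plexus genes fell there.

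The IGF system is of interest because of Igfbpl1. Of 16 genes 13 were tested, 2 fell (Igfbpl1 and Igfbp2) and none rose, with a median log2 fold change of -0.274 and a range of -7.51 to 1.41. Igfbp2, a binding protein also made by choroid plexus, was at 527 CPM in PBS mouse 1, 3.06 to 71.6 CPM in the other PBS mice and 1.13 to 14.8 CPM in the GCV mice, and its call was lost without PBS mouse 1 (log2 fold change -1.46 in place of -4.04). The receptor Igf1r was at 80.7 ± 16.6 CPM with GCV and 119 ± 19.9 CPM with PBS, and the ligand Igf1 at 7.39 ± 6.22 and 3.07 ± 1.25 CPM (SD, n = 5 and 4), neither of them called. Igfbp4, Igfbp5, Igfbp6 and Igfbp7 were not called either. The summed level was 390 to 518 CPM with GCV and 551 to 1100 CPM with PBS, highest in PBS mouse 1.

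Other genes that fell with separate groups have no place in the lists. Ripk4, a kinase best known from skin, had no count with GCV and 38, 22, 102 and 110 counts with PBS, at least 14.1-fold lower, and all but 1 of the 6 wild-type libraries held it. Hfe, which regulates iron uptake and underlies hereditary haemochromatosis, had 1 count with GCV, in GCV mouse 2, against 496, 127, 92 and 5 with PBS. It also fell in wild-type mice (log2 fold change -4.42), where it was at 0.109 to 3.52 CPM with GCV and 10.2 to 37.8 CPM with PBS. Hfe was highest in the 3 control libraries rich in Ttr, at 36.8 CPM in PBS mouse 1 and 35.4 and 37.8 CPM in wild-type PBS mice 1 and 2, against 0.396 to 10.2 CPM in the other 4 controls. With Ttr as a covariate its log2 fold change was -7.76 in place of -8.50 and the call was kept, while without PBS mouse 1 it did not pass the filter.

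By fitted log2 fold change, which for genes at 0 depends on the prior count and does not rank them by their bounds, the remaining 6 of the 10 genes named for a decrease with separate groups were 2210011C24Rik and 5 genes that the annotation does not class as protein-coding (Gm45560, Gm13033, Gm43024, Gm38200 and Ccdc142os), each with no count in any GCV library. Gm45560 was at least 30.9-fold lower (49, 356, 22 and 123 counts with PBS). The other 5 were at least 7.33-fold to 10.4-fold lower by their PBS means. PBS counts were 46, 106, 42 and 1 for 2210011C24Rik and 2, 18, 43 and 75 for Gm38200. The lowest PBS library of each was thus itself under the floor of 3 counts, and there the groups were apart by 1 or 2 counts against 0. Ccdc142os shares exon bases with Ccdc142 and Mrpl53 on the other strand, and without strand information their reads cannot be told apart. The same holds for Dlx1, Plk1, Ccdc114, Maats1, Rab33b, Nos1, Enpp2, Otx2 and Pcdhga12, each of which overlaps an exon of a gene on the other strand. On the same strand, 2210011C24Rik, Otx2, Prlr and Top2a share exon bases with another annotated gene.

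Cdk14 showed the smallest p of all genes, and it rose. This cyclin-dependent kinase acts on the Wnt receptor complex at the cell membrane and lies on chromosome 5 (4803391 to 5420312, protein-coding). It was at 505, 936, 1376, 662 and 624 CPM in GCV mice 1 to 5 and at 122, 220, 202 and 79.3 CPM in PBS mice 1 to 4. The lowest GCV mouse had more than the highest PBS mouse, and the means were 821 ± 348 CPM (SD, n = 5) and 156 ± 66.3 CPM (SD, n = 4). The log2 fold change was 2.55 ± 0.364 (SE; adjusted p = 0.0992 by the edgeR quasi-likelihood test, Benjamini-Hochberg). Leaving out each library gave 2.29 to 2.76.

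Cdk14 also rose in mice without the transgene. Wild-type GCV mice had 829, 811 and 452 CPM and wild-type PBS mice 227, 74.3 and 127 CPM (log2 fold change 2.25). The interaction was 0.308 ± 0.574 (SE) and was not called. In both genotypes GCV also went with lower library numbers, and this cannot be told apart from the treatment.

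The other 8 genes that rose with separate groups were Pcdhga12, Fkbp1b, Slc36a1, Rab33b, Ric1, Dido1, Senp7 and Robo1, with log2 fold changes of 3.31 down to 1.01. Ric1, which serves Golgi trafficking with RGP1, was at 29.9, 53.3, 59.7, 40.2 and 29.3 CPM with GCV and 21.4, 16.0, 16.7 and 18.4 CPM with PBS (1.39 ± 0.365 SE), a call that held without any 1 library. Dido1, a regulator of transcription and mitosis, was at 49.9 to 73.9 CPM with GCV and 19.9 to 36.8 CPM with PBS (1.13 ± 0.3), a call lost without PBS mouse 4 (0.956). Wild-type levels with either agent were 13.1 to 29.7 CPM for Ric1 and 26.2 to 40.0 CPM for Dido1.

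Robo1, a receptor for the Slit proteins that repel migrating neuroblasts, was at 39.0 to 56.3 CPM with GCV and 15.5 to 37.5 CPM with PBS (log2 fold change 1.01 ± 0.329 SE). Slc36a1, an amino acid transporter of the lysosome, was at 22.5 to 57.2 CPM with GCV and 6.51 to 18.3 CPM with PBS (1.64 ± 0.470). Fkbp1b, a partner of calcium release channels, was at 12.1 to 52.2 CPM with GCV and 5.31 to 10.5 CPM with PBS (1.87 ± 0.554). Pcdhga12, a clustered protocadherin, shares exons with 25 annotated genes of its cluster on the same strand, so its value of 3.31 ± 0.951 is uncertain. Of these 8 genes all but Ric1 lost the call in at least 1 fit that left out a library. The call was lost for Robo1 without any 1 of GCV mice 1, 2 and 5 and PBS mice 1 to 3 (0.838 to 1.02) and for Senp7 without any 1 of GCV mice 2, 3 and 5 and PBS mice 1 and 4 (0.848 to 1.03). It was lost for Slc36a1 without any 1 of GCV mouse 5 and PBS mice 2 to 4 (1.38 to 1.62) and for Fkbp1b without any 1 of GCV mice 1 and 2 and PBS mice 2 and 4 (1.45 to 1.85). It was also lost for Pcdhga12 without any 1 of GCV mouse 3 and PBS mice 1, 2 and 4 (2.80 to 3.20) and for Rab33b without GCV mouse 3 (1.03) or PBS mouse 1 (1.38).

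**Figure D4:**
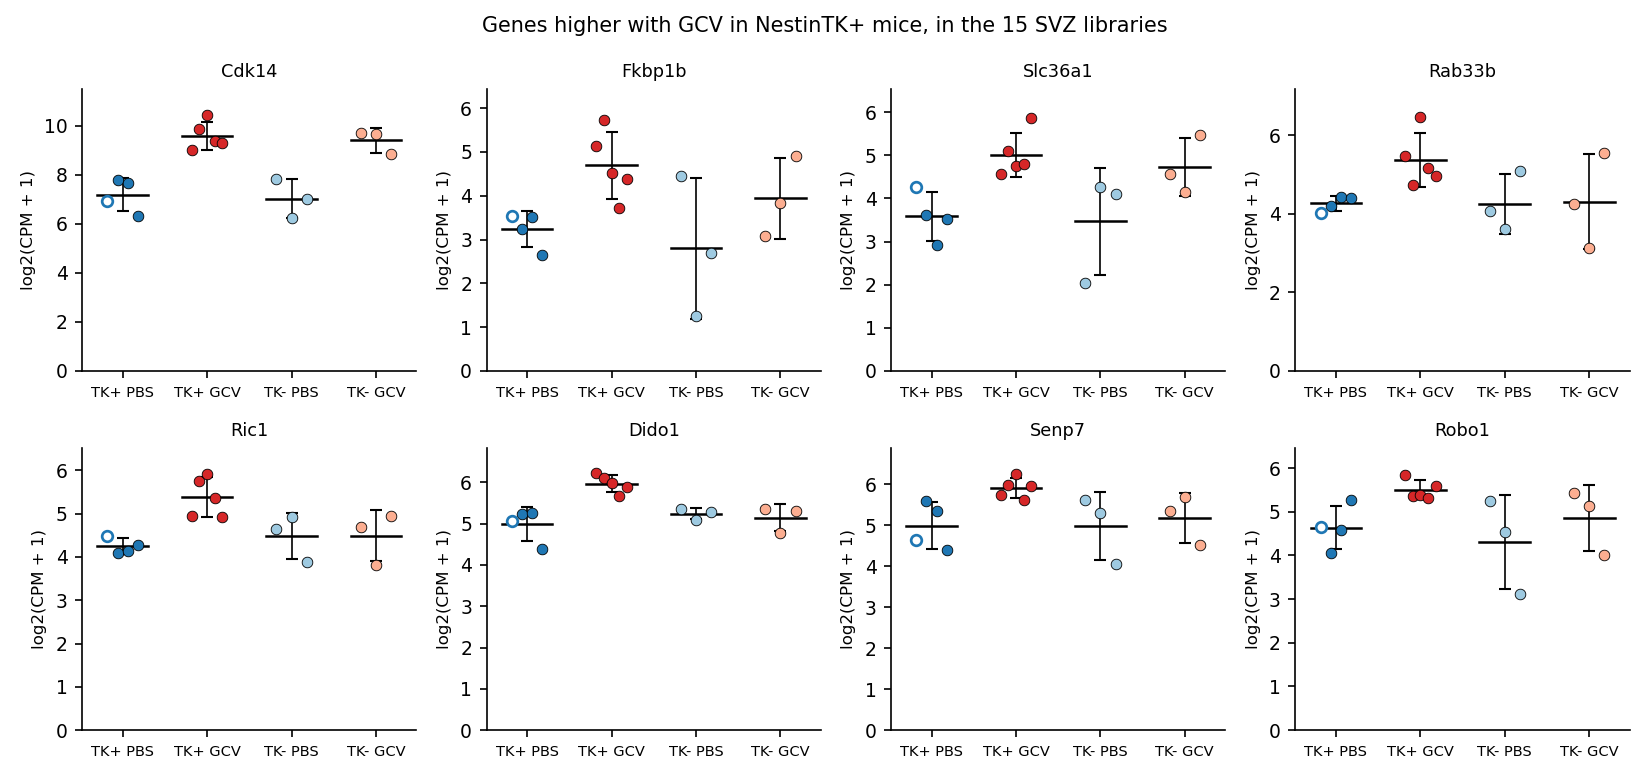
Levels of 8 genes higher with GCV as log2(CPM + 1) in the 15 SVZ libraries by genotype (TK+ or TK-) and treatment, 1 point per mouse, with the mean (bar) and SD (whiskers) and PBS mouse 1 as an open circle. The Cdk14 groups do not overlap in either genotype, while Ric1 and Dido1 groups do not overlap in TK+ mice and overlap in TK- mice.

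Astrocyte, microglial and inflammatory genes gave few calls. No astrocyte gene was called (19 tested, median log2 fold change 0.0782). Gfap, the astrocyte filament that adult stem cells also express, was at 34.9, 51.1, 12.2, 31.6 and 30.9 CPM with GCV and 28.6, 147, 27.3 and 203 CPM with PBS and was not called, where 2 PBS mice were high and the other 2 lay within the GCV range. Of 12 reactive astrocyte genes 7 were tested and none was called (median -0.214), with Vim at 59.1 ± 41.4 and 122 ± 35.3 CPM (SD, n = 5 and 4).

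Homeostatic microglial genes were not called in either direction (20 tested, median log2 fold change 0.204), and Cx3cr1 stood at 39.3 ± 18.3 and 42.7 ± 14.3 CPM and P2ry12 at 42.6 ± 5.65 and 31.6 ± 9.27 CPM (SD, n = 5 and 4). Of 16 microglia activation genes 8 were tested (median -0.59) and 1 fell, Cd63. This tetraspanin of lysosomes, which choroid plexus and ependyma also express, was at 66.3, 62.7, 18.0, 40.4 and 15.8 CPM with GCV and 260, 114, 70.5 and 139 CPM with PBS (-1.68 ± 0.483 SE). It fell in wild-type mice as well (-2.28), and its call was lost without PBS mouse 1 (-1.18). The activation sum, most of it Apoe, was 2360 to 3640 CPM with GCV and 3660 to 5750 CPM with PBS, and 2320 to 3400 against 3890 to 4840 CPM in wild-type mice. Of 25 interferon and antigen presentation genes 20 were tested and none was called (median -0.115), and none of 18 tested genes of p53 targets and apoptosis was called (median -0.572), with Cdkn1a at 13.9 ± 11.2 and 26.1 ± 6.81 CPM.

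Other lists of the surrounding tissue gave no calls. None passed among oligodendrocyte (19 tested, median log2 fold change -0.172), oligodendrocyte precursor (15, 0.00513), endothelial (21, 0.249), mural (7, 0.286), meningeal fibroblast (9, -0.467), medium spiny neuron (18, 0.334) and blood and neutrophil genes (6, 0.46). Drd1 and Drd2, the dopamine receptors of the direct and indirect pathway neurons, stood at 317 ± 105 and 302 ± 114 CPM with GCV and at 357 ± 113 and 249 ± 51.3 CPM with PBS (SD, n = 5 and 4).

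Of 13 tested striatal interneuron genes (median log2 fold change 0.511), Htr3a fell and Nos1 rose. Htr3a, a serotonin receptor also found in migrating interneuron precursors, had 2 counts with GCV, both in GCV mouse 2, against 4, 64, 159 and 65 with PBS, a 115-fold lower level with a counting interval of 31.5 to 954. Nos1, the nitric oxide synthase of a class of striatal interneurons, was at 51.0, 76.8, 130, 35.0 and 56.6 CPM with GCV and 28.7, 39.3, 40.6 and 17.4 CPM with PBS (1.3 ± 0.409 SE), with GCV mouse 4 inside the PBS range and a call lost without GCV mouse 2 (1.23) or 3 (0.967) or PBS mouse 1 (1.28) or 4 (1.1).

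Cortical excitatory genes differed through 1 GCV library. Of 10 genes 7 were tested (median log2 fold change 2.87) and 1 rose, the glutamate transporter Slc17a7, which was at 260 CPM in GCV mouse 2, 0.313 to 7.66 CPM in the other GCV mice and 1.63 to 4.47 CPM in the PBS mice. Its log2 fold change of 4.79 became 0.812 without GCV mouse 2 and the call was lost, as it was without any 1 PBS mouse (4.65 to 5.26). The same mouse had the lowest medium spiny neuron sum, 6130 CPM against 16900 to 21200 CPM in the other GCV mice and 11500 to 16800 CPM in the PBS mice, and the part of this library in other results was not tested beyond leaving it out in turn.

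Signalling pathways of the niche gave few calls. None of 15 Notch genes (median log2 fold change -0.19) and none of 21 tested Wnt, BMP and Hedgehog genes (-0.171) was called, with Notch1 at 27.2 ± 14.8 and 19.2 ± 6.78 CPM and Axin2 at 10.3 ± 5.83 and 11.8 ± 4.09 CPM (SD, n = 5 and 4). Of 23 tested migration and guidance genes (median 0.0642), Prokr2 fell and Robo1 rose. No immediate early gene (18 tested, -0.218) and no mitochondrially encoded gene (7 tested, 0.101) was called.

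**Figure D5:**
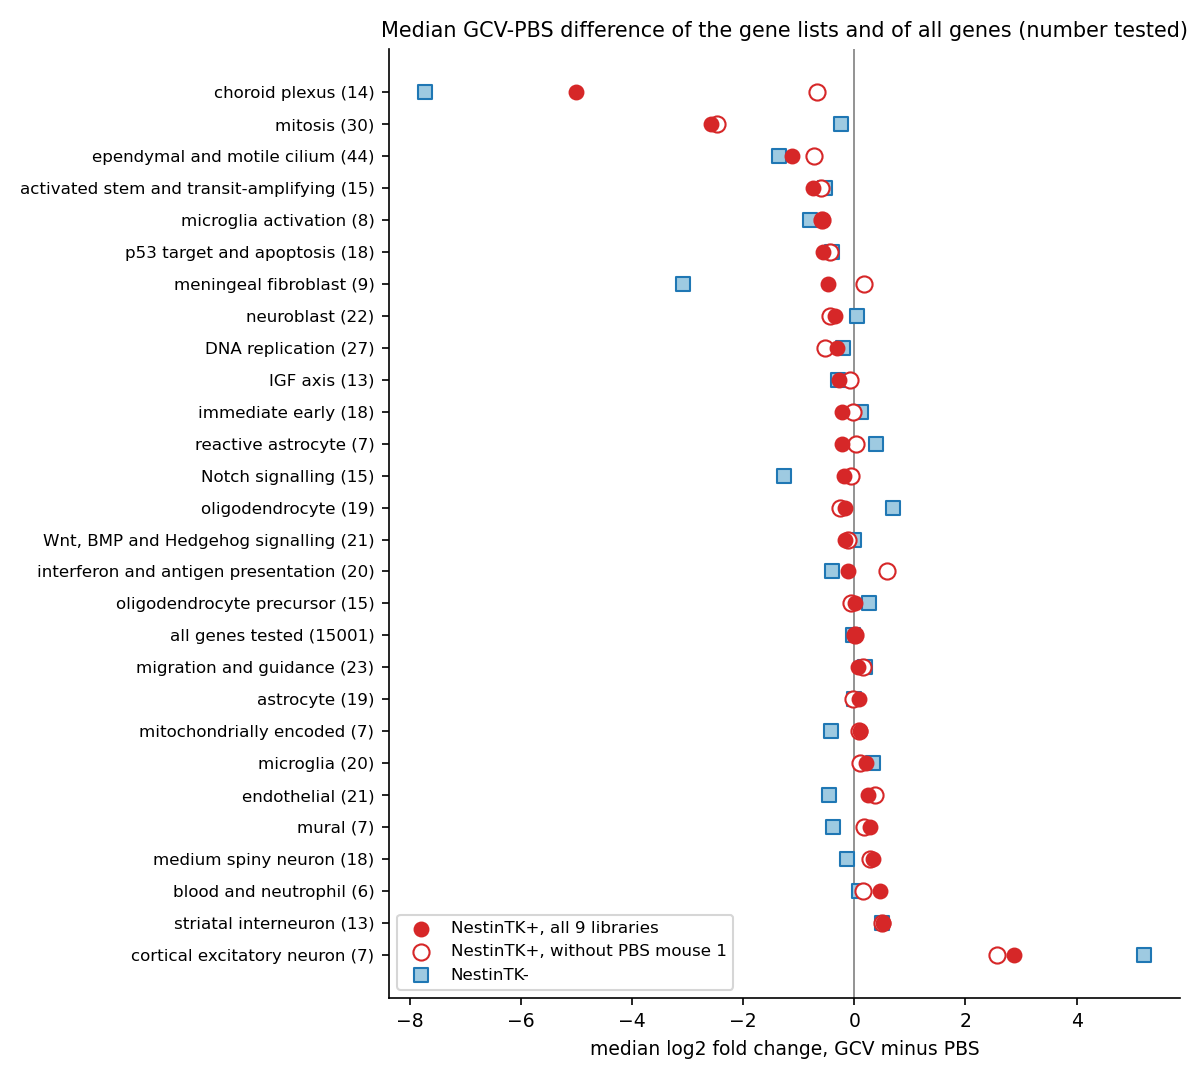
Median log2 fold change (GCV minus PBS, x axis) of each of 27 gene lists and of all genes tested (y axis, with the number of genes tested) in NestinTK+ mice with all 9 libraries, without PBS mouse 1, and in wild-type mice. The choroid plexus median moves from -5.01 to -0.674 without PBS mouse 1 and is -7.73 in wild-type mice, the cortical excitatory median is 2.87, 2.56 and 5.21, and the mitosis and ependymal medians hold genes that the filter kept because of the PBS libraries.

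The wild-type mice serve as a background for GCV without the transgene. Between 3 wild-type GCV and 3 wild-type PBS mice, which share no library with the NestinTK+ comparison, 130 of 16375 genes fell (0.794%) and 44 rose (0.269%), and 1252 had a nominal p under 0.05 (7.65%). In the same model of 15 libraries the NestinTK+ contrast gave 158 that fell and 37 that rose. Of the 124 genes that fell in NestinTK+ mice 13 also fell in wild-type mice, and of the 34 that rose 2 did. Among the 13 were the choroid plexus genes Ttr, Prlr, Enpp2, Kl and Sostdc1, and also Igfbp2, Hfe and Cd63. Ttr made up 9.83% of counts in PBS mouse 1 and 4.49 and 9.88% in wild-type PBS mice 1 and 2. For these genes treatment and choroid plexus content cannot be told apart. The interaction of genotype and treatment was lower in 64 genes (0.391%) and higher in 73 (0.446%), with no gene at an adjusted p under 0.05 by the edgeR quasi-likelihood test (Benjamini-Hochberg), 833 at a nominal p under 0.05 (5.09%), and 40 at an adjusted p under 0.05 by DESeq2. It included 16 of the genes that fell and 5 of those that rose, Igfbpl1 and Prokr2 among them. Those genes were called on the NestinTK+ difference, which the interaction contains, so this overlap is a description and no support.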

How the data were processed

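SVZ tissue was flash frozen, and the authors made SMART-Seq v4 libraries and sequenced them as single-end reads. Per the labels and methods, reads were trimmed with Trimmomatic, aligned to mm10 (Gencode M16) with STAR 2.5.3a and counted per gene with featureCounts. The authors deposited raw counts with no normalization, and the strand setting is not given in the sources used here. Striatum libraries, made with another kit, were not used. CPM was computed on raw totals, which limit the precision of low genes: 3 counts correspond to 0.313 to 0.359 CPM in GCV and 0.181 to 0.238 CPM in PBS libraries. Counting intervals and floors cover counting error only, since reads carry no molecular identifiers.

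Counts were normalised with TMM factors and tested with edgeR 4.0.16 (glmQLFit and glmQLFTest, R 4.3.3) on the 9 libraries. The interaction and the wild-type contrast came from 1 model of 4 groups over 15 libraries. DESeq2 1.42.0 and limma 3.58.1 were alternatives, beside other scaling, no filter, thinning to one total, a Ttr covariate, robust dispersion and leaving out each library. The scripts were tested on simulated counts for the 15001 genes, in which 200 genes were changed. At the same thresholds 0.67 to 0.76% of the unchanged genes were called, where 1.05% of all genes were called in the data. A call of a single gene can therefore be false. Of the changed genes, 23% were called in the right direction at a true log2 fold change of 1, and 81% at 4. Log2 fold changes depend on the prior count where a group is at 0. The SE of a log2 fold change was derived as its absolute value divided by the square root of the quasi-likelihood F statistic. It is therefore approximate, most of all for genes at or near 0 in a group. The thresholds, a nominal p of at most 0.01 and a 2-fold change, are those of the study.

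Genes are named by rule: up to 10 called genes per direction, by size of change, among those with no overlap of groups (9 rose), the 4 called members of each of 27 lists with the smallest p, the first 3 members of a list, and the IGF and choroid plexus lists. The other called list members, and Sox4, Sp9, Dlx5, Dlx6, Stmn2, Gad1, Cdk1, Nes, Ccnd2 and Apoe, were chosen after their values were seen, as were the motifs. A gene that the rule names is not reported here. The comparison and the lists were chosen with earlier results of these data known. Positions and gene types are from GENCODE vM21 (GRCm38), to which 93.3% of symbols matched, and promoters from RefSeq.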

Additional observations from a re-analysis of the deposited data

Results flagged for a closer look

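Single mice far from the rest of their group by Dixon's test, which flags about 1 in 20 groups by chance, were found for 8 quantities. The number of groups examined is not given here, so the 8 cannot be set against that rate. In PBS mouse 1 the Ttr share was 9.83% and the choroid plexus sum 112000 CPM. GCV mouse 2 had a medium spiny neuron sum of 6130 CPM, below the other GCV mice, a cortical excitatory neuron sum of 636 CPM, above them, and an Hfe level of 0.118 CPM from 1 count where the others had none. GCV mouse 3 had a DNA replication sum of 293 CPM and a Rab33b level of 88.4 CPM, and GCV mouse 5 an immediate early sum of 2100 CPM, each the highest of the 5.

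The difference between GCV and PBS was tested between NestinTK+ and wild-type mice for the called genes that are named, and the interaction was called in 6 of them, none at an adjusted p under 0.05. These genes were called on the NestinTK+ difference, which the interaction contains, so the 6 are a description and no support. Over all genes tested, the interaction was lower in 0.391% and higher in 0.446%. On the log2 scale it was -7.64 for Igfbpl1, 1.28 for Dido1, -10.7 for Prokr2, -8.61 for Ripk4, -10.4 for Gm13033 and -9.95 for Gm43024. The last 4 are at 0 in all NestinTK+ GCV libraries, so that these sizes depend on the prior count, and Gm43024 had 1 count in all 6 wild-type libraries together.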

How the results depend on the processing

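Of 47 called genes that are named, 37 passed the filter in every fit with 1 library left out, and 10 of these kept the call under every setting tried (Cdk14, Igfbpl1, Prokr2, Spc25, Ripk4, Gm45560, Maats1, Pimreg, Sp8 and Ric1). Of the other 10, Aspm, Hfe, Htr3a, 2210011C24Rik, Ccdc142os, Gm13033, Gm38200 and Gm43024 lost no call in any fit that tested them. Each of these genes was tested in only 6 of the 9 fits that left out 1 library. The missing fits left out a PBS library that the gene needed to pass the filter, so no call could be lost there. The direction was kept by 45 of the 47. The exceptions were Kl, which was 1.34 without PBS mouse 1 (range over libraries left out -5.68 to 1.34), 0.954 with Ttr as a covariate and 1.41 without PBS mouse 1 in thinned libraries, and Ttr, 0.533 with itself as the covariate. In NestinTK+ mice, leaving out 1 library gave 55 (PBS mouse 1) to 154 (GCV mouse 2) genes that fell, 20 to 44 that rose and 0 at an adjusted p under 0.05. The number that fell was 78 without PBS mouse 4. No filter gave 244, 93 and 3. DESeq2 gave 95 that rose and 28 at the adjusted threshold, limma-voom and robust dispersion 1 each at that threshold. The Ttr covariate gave 75 that fell. Settings other than leaving out a library also ended the calls of Fkbp1b and Nos1 (limma-voom, 1.66 and 1.2), of Rab33b, Senp7 and Robo1 (all 15 libraries, 1.43, 1.03 and 1.01), and of Pcdhga12 and Cd63 (Ttr covariate, 3.36 and -1.34). Leaving out PBS mouse 1 and thinning the others, chosen after seeing the data, gave 49 and 19.

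In wild-type mice, leaving out 1 library gave 77 to 168 that fell, 27 to 102 that rose and 0 to 1 at the adjusted threshold. No filter gave 291, 122 and 38, DESeq2 306, 127 and 100, and limma-voom 84 that rose. For the interaction, leaving out 1 library gave 32 to 109 lower, 44 to 105 higher and 0 to 1 at the adjusted threshold. No filter gave 249, 283 and 1, DESeq2 165 higher and 40 adjusted, and limma-voom 100 lower and 1 adjusted. Without the 3 Ttr-rich control libraries, chosen after seeing the data, 80 fell and 216 rose in wild-type mice, and 176 were lower by the interaction. That fit left wild-type PBS mouse 3 as the only wild-type PBS library. These 3 numbers therefore cannot separate Ttr content from the state of 1 mouse, and no conclusion is drawn from them. Causes were not tested. No paired analysis was possible because the labels give no number shared by a GCV and a PBS mouse. Depth limits low genes: 62 genes that fell had at most 3 counts in each GCV library.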
